A study of Mus musculus with 6 samples.

Results

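The machinery that copies and reads the mitochondrial genome was examined through 10 nuclear genes, chosen by name from the deposited gene count table, in which they make up 10 of 54532 genes. They are Polrmt, Tfam, Tfb2m, Tefm, Tfb1m, Polg, Polg2, Ssbp1, Lrpprc and Slirp. Poly-A RNA of the left ventricle was sequenced in 3 TG mice and 3 NTG mice, all male and all taken 4 weeks after aortic banding (AB), an operation that loads the heart by narrowing the aorta. TG mice (HINT2CTG-Myh6Cre in the labels) came from a cross of B6-CAG-HINT2 with B6-Myh6Cre mice and received tamoxifen, so that HINT2, a mitochondrial nucleotide-binding protein, was overexpressed in cardiomyocytes. NTG mice are labelled C57BL/6J. The sources used here do not say whether NTG mice received tamoxifen, and there was no group with Cre alone, so HINT2, Cre and tamoxifen cannot be told apart. No sham-operated libraries were analysed here, and every value below is therefore from a banded heart. The study's question was how HINT2 protects the loaded heart, and the values below are differences between the groups as labelled, TG against NTG.

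The mitochondrial genome is a small circle that encodes core subunits of the respiratory chain and the RNAs needed to translate them, and every protein that copies or transcribes it is made from nuclear genes. POLRMT is its RNA polymerase, TFAM bends and packages the DNA and opens promoters together with TFB2M, and TEFM keeps the polymerase elongating. DNA is copied by POLG with its accessory subunit POLG2, single strands are covered by SSBP1, and finished mRNAs are held stable by LRPPRC with SLIRP. Cardiomyocytes hold many mitochondria, and in the heart this machinery is known to depend on the nuclear factors NRF1 and GABP, which bind promoters of its genes.

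Facts of the libraries that touch these values come first. Total counts on genes were 14863568 to 17581220 per library in NTG and 14944465 to 17235802 in TG. The targeted gene, Hint2, had 793, 828 and 859 counts in the TG libraries. In NTG it had 12 counts in the library labelled NTG 1 and 545 and 559 in the other two. The library labelled NTG 1 thus goes against the other NTG libraries in the gene that the groups differ by, and each fold change of the 10 genes is also given without it. A chi-square per gene was computed between the counts of each pair of libraries. For the library labelled NTG 1 it was 22.0, 17.95 and 28.3 against TG 1, TG 2 and TG 3. Against NTG 2 and NTG 3 it was 71.4 and 33.6, so by this measure the library lay nearer to the TG libraries. The reason was not tested. Defining cardiomyocyte markers (Myh6, Tnnt2, Tnni3, Actn2, Ryr2, Myl2 and Pln) were present in all libraries, with a summed level of 14247 to 24125 CPM (counts scaled to the size of the library, after TMM normalization) in NTG and 23168 to 29090 in TG.

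Promoters are shown first, since NRF1 and GABP are the textbook regulators of these genes. Windows from 250 bases before to 50 bases after the start came from RefSeq (GRCm38.p6), which held all 10 genes. The ETS core bound by GABP, written CCGGAAG or CTTCCGG on the other strand, was in the windows of 7 of the 10 genes and in 8.86% of all 32851 windows. The 7 genes were Polrmt, Tfam, Tefm, Polg, Polg2, Ssbp1 and Slirp. Of the 10 windows, 9 had a GC content over the median of all windows (52.0% to 70.3% against 52.7%), whose part in these counts was not tested. Each core is printed here with 10 bases on either side, 5′ to 3′ on the strand of the gene, with the core in capitals.
Polrmt, chr10:79746608-79746634, minus strand: cctaagagcgCTTCCGGcagtcgcaga
Tfam, chr10:71238075-71238101, minus strand: ctgccgcggaCCGGAAGtccgggcttc
Tefm, chr11:80142146-80142172, minus strand: gcacacgaaaCCGGAAGttgaggagga
Polg, chr7:79466295-79466321, minus strand: aggacctcacCCGGAAGtccctctgca
Polg2, chr11:106779550-106779576, minus strand: gggtgacgctCTTCCGGgggcgtggtc
Ssbp1, chr6:40471411-40471437, plus strand: gctccgtgcgCCGGAAGcgagccgctg
Slirp, chr12:87443740-87443766, plus strand: agcggaaaagCTTCCGGaaagcatcct
Slirp, chr12:87443838-87443864, plus strand: acagtttggcCCGGAAGcagaactcga
Slirp, chr12:87443875-87443901, plus strand: ctggcaggttCTTCCGGggtcacgact

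The starts used are those of RefSeq, while the gene positions in the paragraphs that follow are those of the deposited table (GRCm38), which differ in some genes. In Tfam, Tefm, Polg and Ssbp1 the printed bases have their core before the RefSeq start but lie inside the gene as the table places it. Counted from the RefSeq start, with negative positions before it, the ETS core began at -47 in both Tfam and Ssbp1, at -43 in Polrmt, -38 in Polg, -29 in Polg2 and -9 in Tefm. In Slirp it was found 3 times, at -146, -48 and -11. The NRF1 motif GCGCANGCG (CGCNTGCGC on the other strand) was in 2 of the 10 windows, those of Polrmt and Tfb2m, and in 6.25% of all windows. The YY1 motif AANATGGCG (CGCCATNTT) was in the window of Slirp and in 2.38% of all windows. The element of the oestrogen-related receptors, TCAAGGTCA (TGACCTTGA), was in none of the 10 and in 0.423% of all windows. Matches are exact letters on both strands and describe these windows only.

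Across the group, none of the genes met the call used here in edgeR's quasi-likelihood test, a Benjamini-Hochberg adjusted p under 0.05 with a fitted change of more than 0.5 on the log2 scale in either direction. The same held for all genes, of which 0 of 14774 tested were called (0%). Of the 10 genes, 9 passed the filter on low counts and were tested, and Slirp did not pass. Fitted fold changes were above 0 in 8 genes and below 0 in 1, Polg2, with a median log2 fold change of 0.18. The median over all genes tested was -0.0081, and 48.7% of them lay above 0. Ssbp1 and Polg, 2 of the 9, were higher in TG with an unadjusted p under 0.05 and 0 were lower, against 8.83% of all genes tested higher and 9.76% lower. The same 2 genes had all TG libraries above all NTG libraries, a pattern seen in 11.2% of all genes tested, and 0 had all TG libraries below, against 12.3%. Adjusted p-values of the 9 genes ran from 0.213 to 0.750. In this edgeR fit the smallest over all genes tested was 0.196, which several genes named below share. In these bulk libraries, a different number of cells of a type and a different amount of RNA per cell cannot be told apart.

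**Figure D1:**
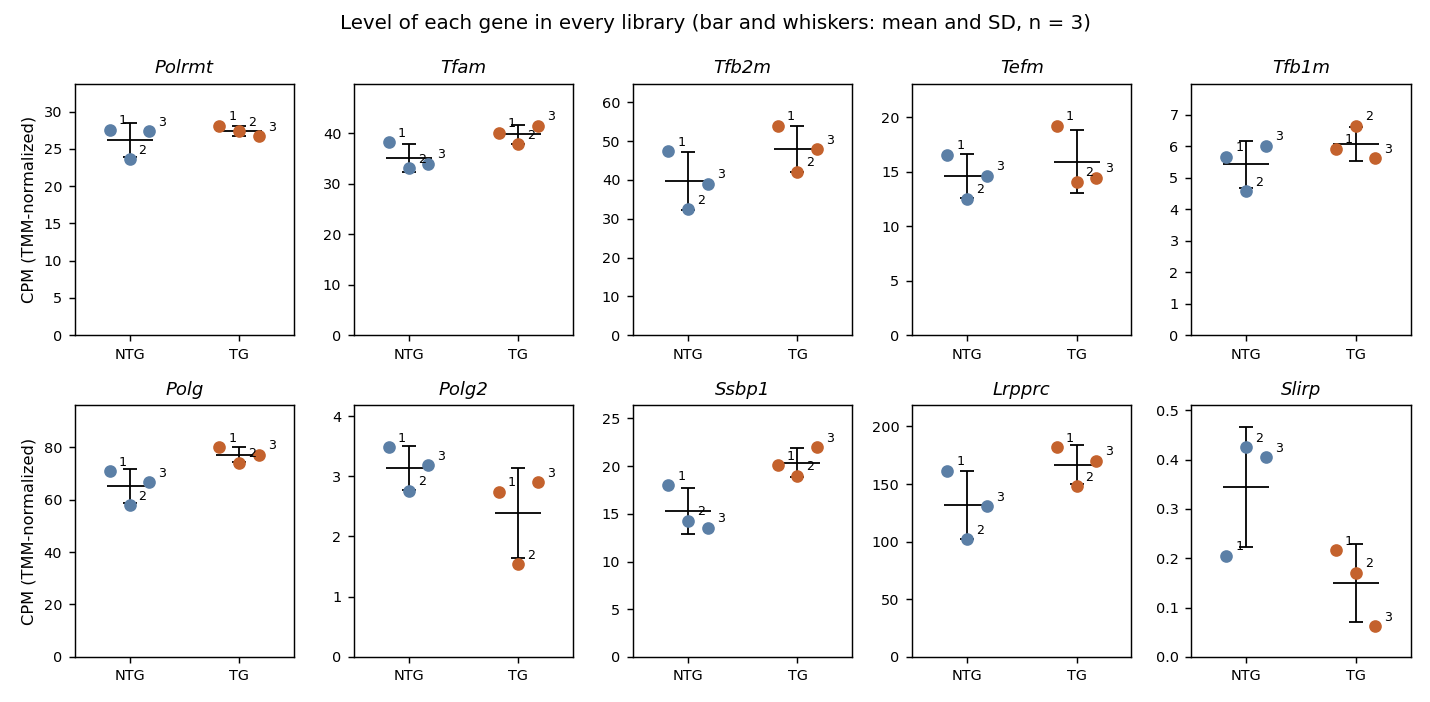
Level of each of the 10 genes in CPM with TMM normalization (vertical axes, each from 0) in every NTG and TG library, with the replicate number beside each point and the mean and SD (n = 3) as bar and whiskers. The TG points sit above all NTG points in Polg and Ssbp1, while Polg2 and Slirp have lower means in TG.

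Levels between genes were compared per kilobase of the principal transcript, as the mean CPM per kb over the 6 libraries. Lrpprc stood highest at 34.0 CPM per kb, with 23.3 to 41.4 over the libraries. Tfb2m followed at 17.9 and Tefm at 11.7, and the library ranges of these genes (13.2 to 22.1 and 9.57 to 14.7) overlapped. Polg at 9.08, Tfam at 8.98 and Polrmt at 7.14 followed, with Polg and Tfam overlapping in their library ranges (7.40 to 10.2 and 7.93 to 9.96). The range of Tefm overlapped those of Polg and Tfam, and the range of Polrmt, 6.29 to 7.49, that of Polg. Tfb1m and Ssbp1 lay at 4.09 and 4.05, again with overlapping ranges. Polg2 was lower at 1.84, and Slirp was lowest at 0.092. Of the exon bases of Slirp, 97.8% lie over exons of other genes on the opposite strand, so its place in this order is uncertain. With the full exon length of the table instead, the order of the 3 highest and of the 2 lowest genes stayed as it was, while Tfam moved above Polg and Ssbp1 above Tfb1m.

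Among the transcription factors of the mitochondrial promoters, Polrmt (chr10:79736123-79746581), the RNA polymerase itself, had the smallest fold change. Its level was 27.6, 23.6 and 27.4 CPM in NTG and 28.1, 27.4 and 26.7 in TG. The groups overlapped, and the TG libraries lay closer together than counting error alone would place them, with a coefficient of variation of 2.55% against 4.79% from counts. The fitted log2 fold change was 0.067 ± 0.10 (SE, n = 3 per group), with a 95% interval of -0.17 to 0.30 and an edgeR Benjamini-Hochberg adjusted p of 0.750. This became 0.10 without the library labelled NTG 1, and the adjusted p became 0.608. The direction was not stable, since scaling by library size alone gave -0.015 and leaving out NTG 2 gave -0.0040.

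Tfam (chr10:71225464-71238280), the packaging and promoter factor of the mitochondrial DNA, had 38.2, 33.0 and 34.0 CPM in NTG and 40.0, 37.8 and 41.5 in TG. NTG 2 and NTG 3 were below every TG library, and the library labelled NTG 1 lay just above TG 2. In the fit this gave a log2 fold change of 0.18 ± 0.097 (SE), with an interval of -0.041 to 0.40 and an edgeR adjusted p of 0.341, which without the library labelled NTG 1 became 0.25 and 0.167. In linear terms the interval runs from 0.972-fold to 1.32-fold.

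Tfb2m (chr1:179528055-179546267), which melts the promoter with POLRMT, had 47.4, 32.4 and 39.1 CPM in NTG and 54.0, 42.1 and 48.0 in TG. The library labelled NTG 1 reached the level of the TG libraries, and the spread in NTG (coefficient of variation 19.0%) was well over the 3.89% that counts alone would give. Fitted over all libraries, the log2 fold change was 0.28 ± 0.15 (SE), with an interval of -0.078 to 0.63 and an edgeR adjusted p of 0.359. These became 0.42 and 0.101 without the library labelled NTG 1, while the log2 fold change was 0.15 without NTG 2 and 0.18 without TG 1.

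Its paralogue Tfb1m (chr17:3519256-3557781), a methyltransferase of the mitochondrial ribosomal RNA, stood far lower, at 5.67, 4.57 and 6.02 CPM in NTG and 5.91, 6.65 and 5.62 in TG. The groups overlapped, and the spread in TG (8.78%) was below the counting error (10.2%). Exons of Tfb1m share 142 bases (3.9%) with Tiam2 on the opposite strand, which had 136 to 228 counts per library. For Tfb1m the log2 fold change was 0.16 ± 0.19 (SE), with an edgeR adjusted p of 0.658 and an interval of -0.27 to 0.60, and without the library labelled NTG 1 it was 0.20 with an adjusted p of 0.613. It was 0.052 without NTG 2, 0.25 without NTG 3 and 0.091 without TG 2. The log2 ratio of Tfb2m to Tfb1m, which does not depend on scaling, was 3.07, 2.83 and 2.698 in NTG and 3.19, 2.66 and 3.09 in TG. The groups overlapped in this ratio, and the difference of 0.12 had a p of 0.7 in a two-sided exact permutation test (adjusted p = 0.7 over the 3 ratios computed). It ran from 0.014 without TG 1 to 0.28 without TG 2.

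Tefm (chr11:80136678-80142175), the elongation factor, had 16.6, 12.5 and 14.6 CPM in NTG and 19.3, 14.1 and 14.4 in TG. A single library, TG 1, stood above all others, and TG 2 and TG 3 lay within the NTG range. Its log2 fold change was 0.13 ± 0.17 (SE), with an interval of -0.26 to 0.51 and an edgeR adjusted p of 0.704. Without the library labelled NTG 1 the values were 0.23 and 0.454. Without TG 1 the log2 fold change was -0.032, without NTG 2 it was 0.026, and without TG 2 or TG 3 it was 0.21 or 0.19.

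The replication genes had fitted fold changes on both sides of 0. Polg (chr7:79446231-79466362) encodes the catalytic subunit of the DNA polymerase and had 70.9, 58.0 and 66.6 CPM in NTG and 80.0, 74.1 and 77.2 in TG. All TG libraries were above all NTG libraries. The log2 fold change was 0.24 ± 0.099 (SE), with an interval of 0.014 to 0.47, an unadjusted p of 0.0400 and an edgeR adjusted p of 0.248. Without the library labelled NTG 1 it was 0.31 with an adjusted p of 0.107. Exons of Polg share 921 bases (8.6%) with Fanci on the opposite strand, which had 3 to 13 counts in any library against at least 1039 for Polg.

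Polg2 (chr11:106768253-106779537), the accessory subunit that holds the polymerase on its template, was the only tested gene with a fold change below 0. It had 3.48, 2.76 and 3.18 CPM in NTG and 2.74, 1.54 and 2.90 in TG, from 51, 52 and 55 counts in NTG and 38, 27 and 47 in TG. TG 2 was low, TG 3 fell inside the NTG range and TG 1 lay just under the lowest NTG library. Polg2 had a log2 fold change of -0.40 ± 0.30 (SE), with an interval of -1.08 to 0.29 and an edgeR adjusted p of 0.486. Removing the library labelled NTG 1 gave -0.32 with an adjusted p of 0.592, and removing TG 2 gave -0.15. Counts were thin here, and counting error alone amounts to 16.4% in TG, where the spread was 31.2%. Its exons share 132 bases (3.0%) with Milr1 on the opposite strand, which had 14 to 85 counts per library.

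The log2 ratio of Polg2 to Polg, accessory to catalytic subunit, was -4.35, -4.39 and -4.39 in NTG and -4.87, -5.59 and -4.73 in TG. All TG libraries were below all NTG libraries. The SD was 0.024 in NTG and 0.46 in TG, where counting error alone gives 0.204 and 0.246, so the NTG values lay closer together than their counts can resolve. The difference was -0.69, with a p of 0.1 in a two-sided exact permutation test, the smallest that 3 against 3 libraries allow, and an adjusted p of 0.15 over the 3 ratios. TG 2 weighed on its size, since without that library the difference was -0.42.

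Ssbp1 (chr6:40471352-40484700), which coats single-stranded mitochondrial DNA during copying, had the largest fold change of the tested genes. Its level was 18.02, 14.3 and 13.5 CPM in NTG and 20.1, 19.0 and 22.0 in TG. All TG libraries were above all NTG libraries, with the library labelled NTG 1 nearest to them. The log2 fold change was 0.42 ± 0.14 (SE), with an interval of 0.091 to 0.74, or 1.07-fold to 1.67-fold, an unadjusted p of 0.0182 and an edgeR adjusted p of 0.213. Without the library labelled NTG 1 it was 0.55, with an edgeR adjusted p of 0.0513. DESeq2 without that library, a setting added after the values had been seen, gave 0.55 with an adjusted p of 0.0165.

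Lrpprc (chr17:84705247-84790789), which protects mitochondrial mRNAs and supports their polyadenylation, was the most abundant gene of the group. It had 162, 102 and 131 CPM in NTG and 182, 148 and 170 in TG. The library labelled NTG 1 lay between TG 2 and TG 3, and the other NTG libraries were below every TG library. Lrpprc had a log2 fold change of 0.34 ± 0.17 (SE), with an interval of -0.048 to 0.73 and an edgeR adjusted p of 0.313. Without the library labelled NTG 1 it was 0.51, with an edgeR adjusted p of 0.0688 and, in DESeq2, an adjusted p of 0.0223. Without NTG 2 it was 0.19. With 1927 to 2759 counts per library, counting error was near 2.14% in NTG, and the spread there was 22.5%.

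Slirp, the RNA-binding partner of LRPPRC, could not be read from these counts. It had 3, 8 and 7 counts in NTG and 3, 3 and 1 in TG, and it was left out by the low-count filter. Its exons span 3104 bases in the annotation (GENCODE M21, chr12:87443896-87452206, plus strand). Of these, 3036 (97.8%) lie over exons on the opposite strand, 2914 bases over Snw1 and 122 over Alkbh1, and 68 bases are its own. Snw1 had 302 to 511 counts per library. The strand setting of the counting and its treatment of reads that fall on several genes are not given in the sources used here, and their part in the low count was not tested. Summed over libraries, Slirp had 18 counts in NTG (95% Poisson interval 10.7 to 28.5) and 7 in TG (2.81 to 14.4), intervals that overlap and cover counting error only. The log2 ratio of Slirp to Lrpprc differed by -1.68 between the groups, with an exact permutation p of 0.1 (adjusted p = 0.15). It rests on these few counts and was -2.18 without the library labelled NTG 1, -1.115 without TG 3 and -1.33 with 1 added to each count.

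**Figure D2:**
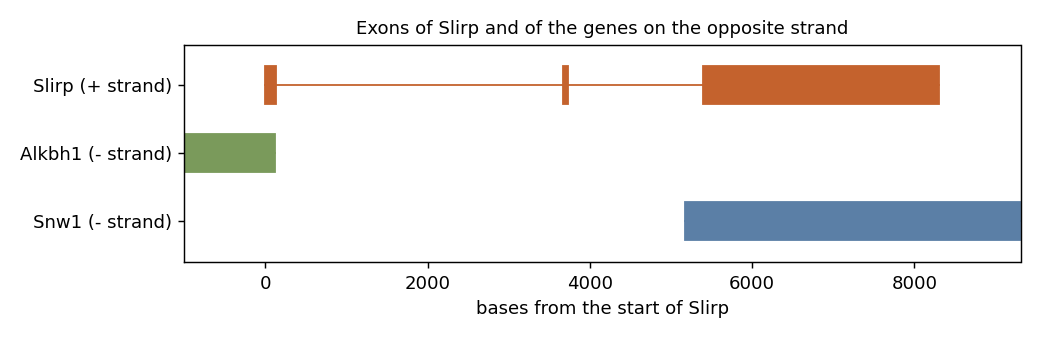
Exons (boxes) of Slirp and of Alkbh1 and Snw1, which lie on the opposite strand, against the distance in bases from the start of Slirp; the lines join the exons of Slirp. The first and last exons of Slirp lie over exons of the other genes, which leaves 68 bases, mainly the short middle exon, to Slirp alone.

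The 95% intervals bound what these libraries could show. Over the 9 tested genes, their upper limits ran from 1.22-fold in Polg2 to 1.67-fold in Ssbp1, and their lower limits from 0.473-fold in Polg2 to 1.07-fold in Ssbp1. Among the 8 genes with fold changes above 0, Polrmt had the narrowest range of fitted values over the 18 alternatives, from -0.015 to 0.11, and Lrpprc a wide one, from 0.19 to 0.52.

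**Figure D3:**
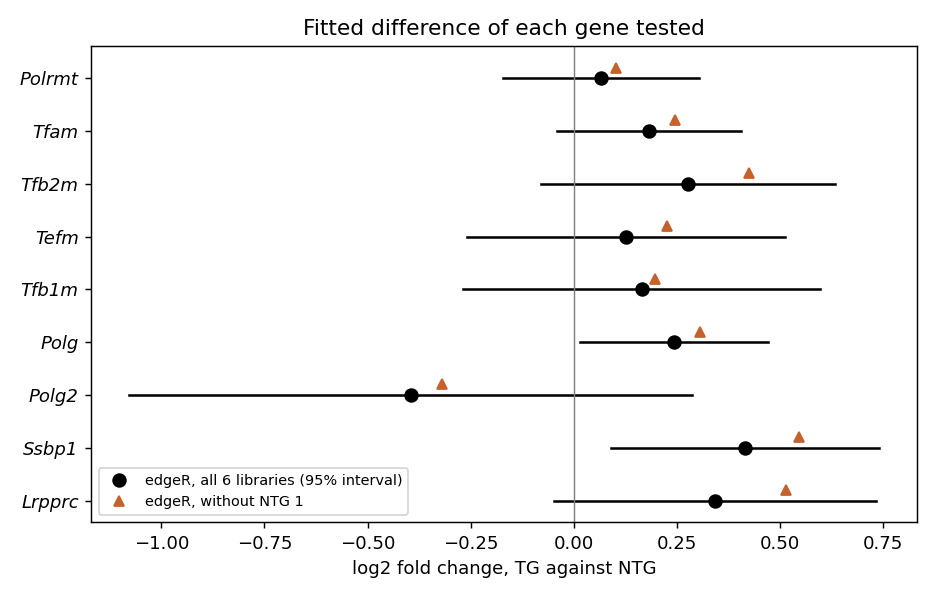
Fitted log2 fold change (horizontal axis, TG against NTG) of the 9 tested genes from edgeR with all 6 libraries (circles, with 95% intervals as lines) and without the library labelled NTG 1 (triangles). The intervals of Polg and Ssbp1 lie above 0 and the other 7 span it, and each triangle lies to the right of its circle.

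Libraries of the same group differed in the level of these genes as a set. When each gene's log2 CPM was centred on its mean over libraries and averaged over the 9 tested genes, the library labelled NTG 1 had 0.099, NTG 2 -0.27 and NTG 3 -0.067, while TG 1 had 0.18, TG 2 -0.053 and TG 3 0.11. The library labelled NTG 1 thus stood above TG 2, and NTG 2 was the lowest of all. NTG 2 was the lowest library in 7 of the 9 genes, and TG 1 the highest in 5. Cardiomyocyte markers were ordered alike at the ends, with their lowest sum in NTG 2 (14247 CPM) and their highest in TG 1 (29090 CPM). Fibroblast markers (Col1a1, Col1a2, Pdgfra, Dcn, Tcf21 and Postn) had their highest sum, 7984 CPM, in NTG 2 and their lowest, 1752 CPM, in TG 3, with 1901 CPM in TG 1.

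Summed levels of fibroblast, blood and smooth muscle markers did not overlap between the groups, while those of the other markers did. Of all genes tested, 8.83% were higher and 9.76% lower in TG at an unadjusted p under 0.05, and 3.95% were called by DESeq2, and the marker counts stand beside these shares. Of 7 cardiomyocyte markers, 7 had fitted fold changes above 0, with a median log2 fold change of 0.53, and 2 had an unadjusted p under 0.05 and 0 were called by DESeq2. Of 6 fibroblast markers, 6 were below 0, with a median of -0.88, and 5 had an unadjusted p under 0.05 and 4 were called by DESeq2. Their summed level was 3571 to 7984 CPM in NTG and 1752 to 3038 in TG. Macrophage markers summed to 274 to 523 CPM in NTG and 217 to 306 in TG, and blood markers to 1153 to 1934 and 652 to 761, with 2 of 4 macrophage markers and 3 of 3 blood markers lower at an unadjusted p under 0.05 and 0 and 3 called by DESeq2. Smooth muscle markers summed to 124 to 151 CPM in NTG and 194 to 214 in TG, where Acta2 and Myh11 were higher at an unadjusted p under 0.05, Tagln had a log2 fold change of -0.61 and DESeq2 called 1 of 3. Endothelial markers summed to 1309 to 1524 CPM and 1404 to 1549, with 1 of 4 higher at an unadjusted p under 0.05 and 0 called by DESeq2. Atrial markers (Myl7, Myl4 and Sln) summed to 67.4 CPM in the library labelled NTG 1, 2.18 in NTG 2 and 2.20 in NTG 3, and to 4.54, 29.2 and 167 in TG 1, TG 2 and TG 3. The part of these cell types in the values of the 10 genes was not tested.

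Leaving out the library labelled NTG 1 raised the fitted fold change of all 9 tested genes, and leaving out NTG 2 lowered that of all 9. Without the library labelled NTG 1, 5 genes had an unadjusted p under 0.05 in edgeR, all higher in TG, where 13.7% of all genes tested did so. Tfam, Tfb2m, Polg, Ssbp1 and Lrpprc then had all TG libraries above both remaining NTG libraries, a pattern of 23.4% of all genes. Called genes of the group stayed at 0 in edgeR without this library, while 836 of 15136 genes tested (5.52%) were called. DESeq2 with all 6 libraries called 0 of the group and 583 of 14774 genes (3.95%), and without this library it called 2, Ssbp1 and Lrpprc, against 11.7% of all genes tested.

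**Figure D4:**
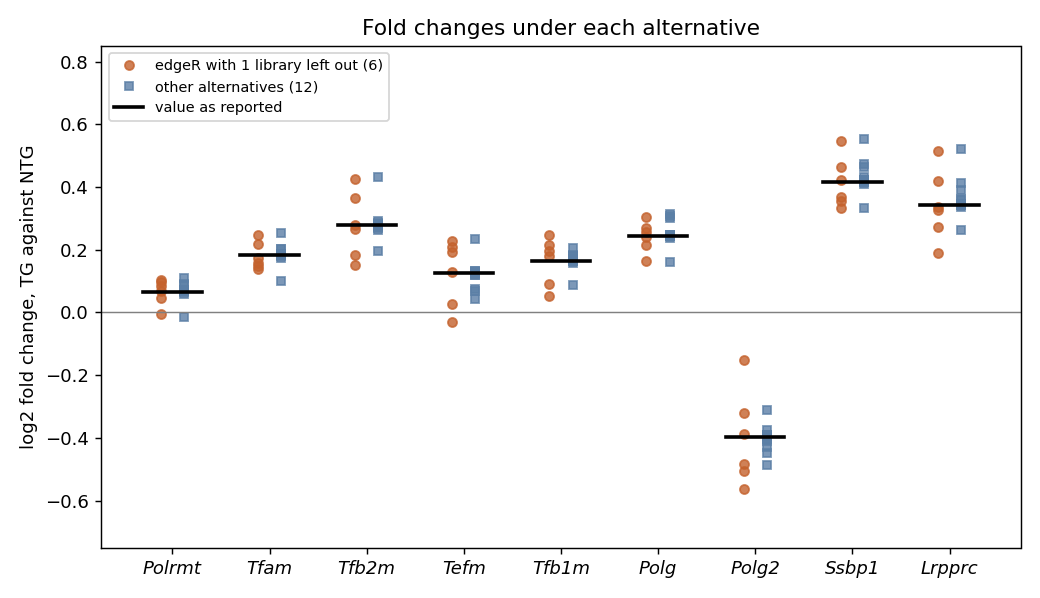
Log2 fold change, TG against NTG (vertical axis), of each tested gene as reported (black bars), after removal of any 1 of the 6 libraries (circles) and under 12 other alternatives (squares). Values of Polrmt and Tefm reach below 0, values of Polg2 are all below 0, and those of the other 6 genes are all above 0.

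Beside the 10 genes, lists of their partners were examined, beginning with other proteins that copy, unwind or repair mitochondrial DNA. Of 15 such genes, all tested, 8 had fold changes above 0 and 7 below, with a median of 0.11 (0.056 without the library labelled NTG 1). An unadjusted p under 0.05 was reached by 2 in the higher and 0 in the lower direction, against 8.83% and 9.76% of all genes tested, and 0 were called. Endog, a mitochondrial nuclease, had 28.8, 17.8 and 22.0 CPM in NTG and 41.3, 29.8 and 35.7 in TG, a log2 fold change of 0.64 with an edgeR adjusted p of 0.203. Ung, the uracil-DNA glycosylase, had 13.0, 5.89 and 10.8 CPM in NTG and 17.5, 15.2 and 14.8 in TG, a log2 fold change of 0.68 with an adjusted p of 0.232. The groups did not overlap in either gene. Atad3a, a membrane ATPase associated with mitochondrial nucleoids, had a log2 fold change of 0.18 (adjusted p = 0.373). The replicative helicase Twnk had 0.15 (adjusted p = 0.614), the exonuclease Mgme1 0.21 (0.597 as adjusted p) and the topoisomerase Top1mt -0.036 (0.936 as adjusted p). With NTG 1 left out, Twnk had 0.33 (adjusted p = 0.140), Mgme1 0.38 (adjusted p = 0.247) and Top1mt -0.10 (adjusted p = 0.810).

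Of 9 regulators of mitochondrial transcription, 6 were above 0 and 3 below, with a median of 0.12 (0.20 without the library labelled NTG 1), and 1 had an unadjusted p under 0.05 in the higher direction, against 8.83% of all genes tested. This was Mrpl12, a ribosomal protein that also binds POLRMT, with 68.2, 51.4 and 61.2 CPM in NTG and 101, 72.7 and 85.3 in TG, a log2 fold change of 0.52 and an edgeR adjusted p of 0.196. Every TG library was above the NTG libraries, TG 2 by the smallest margin. Rexo2, an oligoribonuclease, had -0.13 (adjusted p = 0.476), and Mterf2, of the termination factor family, had 0.33 (adjusted p = 0.569). Mterf4, which pairs with a ribosomal RNA methyltransferase, had -0.0073 (adjusted p = 0.986). The library labelled NTG 1 weighed on these values, which without it were -0.20 in Rexo2, 0.70 in Mterf2 (adjusted p = 0.106) and 0.017 in Mterf4, where the direction turned.

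The list for processing, modification and decay of mitochondrial RNA held 26 genes, of which 21 were above 0 and 5 below, with a median of 0.21 (0.33 without the library labelled NTG 1). Unadjusted p-values under 0.05 were found for 3, all higher in TG, against 8.83% of all genes tested. Hsd17b10, a subunit of the RNase P that cuts tRNAs out of the primary transcripts, had 72.2, 59.4 and 60.2 CPM in NTG and 92.0, 78.7 and 91.8 in TG, a log2 fold change of 0.45 with an edgeR adjusted p of 0.196. Fastk, which has a mitochondrial form needed for an mRNA of complex I, had 184, 113 and 142 CPM in NTG and 226, 194 and 216 in TG, with 0.53 and an adjusted p of 0.208. TG libraries were above all NTG libraries in both genes. Mrm2, a ribosomal RNA methyltransferase, had a log2 fold change of 0.68 (adjusted p = 0.213).

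Of 12 genes that bear on the supply of deoxynucleotides to mitochondria, by making, moving or breaking them down, 9 were above 0 and 3 below. Their median was 0.20, and 1 had an unadjusted p under 0.05 in the higher direction, against 8.83% of all genes tested. Cmpk2, a mitochondrial nucleotide kinase, had 22.1, 11.5 and 14.3 CPM in NTG and 28.0, 36.0 and 53.5 in TG. The groups did not overlap, and TG 3 stood well above the other TG libraries. The log2 fold change was 1.299 with an edgeR adjusted p of 0.196 and a DESeq2 adjusted p of 0.00260, which made it the 1 gene of this list that DESeq2 called, against 3.95% of all genes tested. Mpv17, an inner membrane protein that maintains the mitochondrial genome, had 0.32 (edgeR adjusted p = 0.276), and Tk2, the mitochondrial thymidine kinase, had -0.29 (edgeR adjusted p = 0.341).

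Among 14 nuclear regulators of the machinery, 9 were above 0 and 5 below, with a median of 0.063. Nrf1 and Gabpa, whose motifs were searched above, had log2 fold changes of -0.16 (edgeR adjusted p = 0.513) and -0.011 (adjusted p = 0.961), which without the library labelled NTG 1 were -0.26 and 0.011. The coactivator Ppargc1a had 94.4, 26.8 and 29.5 CPM in NTG and 150.2, 95.1 and 93.2 in TG. The library labelled NTG 1 was at the level of TG 2 and TG 3 and above the other NTG libraries, and the groups overlapped through it. The log2 fold change was 1.17 with an edgeR adjusted p of 0.282, and without this library it was 2.002 with an adjusted p of 0.0205. Esrra, the oestrogen-related receptor that works with this coactivator, had 116, 77.9 and 99.9 CPM in NTG and 163, 127 and 157 in TG, a log2 fold change of 0.61 with an edgeR adjusted p of 0.196 and a DESeq2 adjusted p of 0.0313. Its groups did not overlap, and it was the 1 gene of this list that DESeq2 called, against 3.95% of all genes tested, and the 1 with an unadjusted p under 0.05, against 8.83% of all genes tested. Myc had a log2 fold change of -0.86 (edgeR adjusted p = 0.288). Without the library labelled NTG 1, edgeR called 1 of 15 genes of the replication list (Endog, 0.84 with an adjusted p of 0.0332), 0 of 9 transcription regulators, 2 of 26 of the RNA processing list (Hsd17b10, 0.55 and 0.0332, and Fastk, 0.73 and 0.0299) and 1 of 12 of the deoxynucleotide list (Cmpk2, 1.601 and 0.0404), against 5.52% of all genes tested. In the same fit it called 3 of these 14 nuclear regulators, Ppargc1a, Esrra (0.75 and 0.0370) and Ppargc1b (0.94 and 0.0319), the last of them a related coactivator named after its values were seen.

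**Figure D5:**
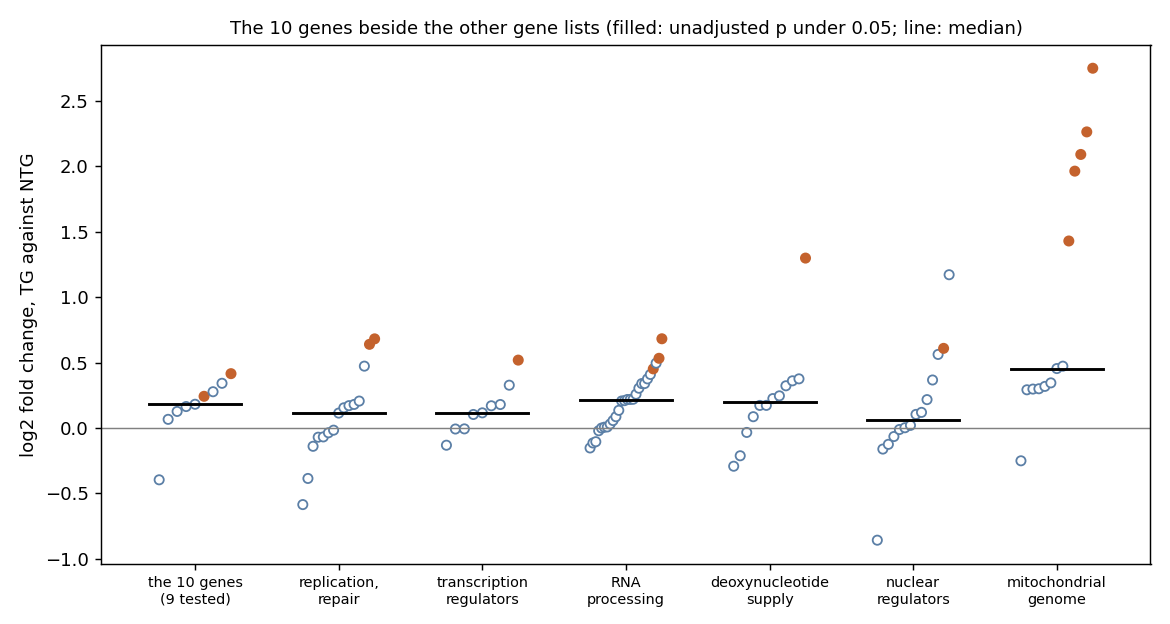
Log2 fold change, TG against NTG (vertical axis), of the 9 tested genes and of each gene in the other lists (points ordered by value within a list), with filled points at an unadjusted p under 0.05 and a line at the median of each list. Medians of the nuclear lists lie between 0.063 and 0.21, that of the 9 genes at 0.18 and that of the mitochondrial genome at 0.45.

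The product of this machinery was read from the 13 protein-coding genes of the mitochondrial genome. In all, genes of the mitochondrial genome took 19.2%, 13.4% and 14.3% of counts in NTG and 21.5%, 16.0% and 20.3% in TG, with the library labelled NTG 1 between TG 2 and TG 3. Fold changes were above 0 in 12 of the 13 and below in 1, with a median of 0.45 (0.71 without the library labelled NTG 1), and 5 had an unadjusted p under 0.05, all higher in TG, against 8.83% of all genes tested. In edgeR 0 were called, while DESeq2 called 4 (mt-Co3, mt-Atp6, mt-Atp8 and mt-Co2), all higher in TG, against 3.95% of all genes tested, and edgeR without the library labelled NTG 1 called 3, against 5.52%. The highest was mt-Co3, a subunit of complex IV, with 266, 249 and 227 CPM in NTG and 1239, 1280 and 2468 in TG, a log2 fold change of 2.75 with an edgeR adjusted p of 0.196 and a DESeq2 adjusted p of 3.3e-22. Its unadjusted edgeR p was 1.4e-05, and 0.196 was the smallest adjusted p of all genes tested in that fit. The lowest was mt-Nd3, a subunit of complex I, with -0.25 (adjusted p = 0.740), and without the library labelled NTG 1 its direction turned to 0.072 (adjusted p = 0.928). In mt-Co3, mt-Atp6, mt-Co2, mt-Nd4l and mt-Nd3, 97.6% to 99.9% of all windows of 100 bases are also found, letter for letter, in an annotated nuclear gene, so that reads could be assigned to several places. These are 4 of the 5 genes with an unadjusted p under 0.05 (all but mt-Atp8) and the lowest gene, and the part of the nuclear copies in their values was not tested. Of the 13 genes, 5 had no such window, and they are named here after their values were seen. In mt-Cytb, mt-Nd1, mt-Nd5 and mt-Nd6 the log2 fold changes were 0.32, 0.30, 0.45 and 0.29, and the groups overlapped in each of them. With the library labelled NTG 1 left out they were 0.57, 0.55, 0.75 and 0.61, with edgeR adjusted p-values of 0.116 to 0.193. In mt-Atp8 the log2 fold change was 2.26 from 0.810 to 1.297 CPM in NTG and 3.64 to 6.996 CPM in TG, without overlap (edgeR adjusted p = 0.196). These levels rest on few counts, 19, 19 and 14 in NTG and 97, 64 and 71 in TG. Poly-A selection also favours transcripts by their tails, which in mitochondria are short, and these counts are therefore levels of captured RNA.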

How the data were processed

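Poly-A RNA-seq libraries of 3 TG and 3 NTG left ventricles were compared. The authors cleaned reads with in-house scripts, predicted transcripts with StringTie v1.3.3b and counted reads per gene with featureCounts v1.5.0-p3. The values they deposited are raw counts, not normalized or pooled. The submitters' processing notes list HISAT2, DESeq2 and the human build GRCh38, whereas 98.3% of the 54532 genes have the start and end of mouse GENCODE M21 (GRCm38), used here for positions. Strand setting and handling of shared reads are not given in the sources used here, so overlapping genes are uncertain.

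These counts went into edgeR 4.0.16 under R 4.3.3 (TMM, filterByExpr, robust quasi-likelihood test), and p-values were adjusted after Benjamini-Hochberg over 14774 genes tested. For a call, the adjusted p had to be under 0.05 and the fitted change more than 0.5 on the log2 scale. Log2 values behind the replicate correlations and the length offset used a prior count of 2. Ratios and centred levels used none. Depth was 14863568 to 17581220 counts per library. The labels do not say more than that libraries are separate samples, so p-values measure the spread between these libraries. Alternatives were DESeq2 1.42.0, limma 3.58.1 (voom), RLE, upper-quartile and library-size scaling, no filter, at least 10 counts in every library, mitochondrial genes left out, a length offset (loess span 0.3), a replicate block with and without that offset and each library left out. DESeq2 without NTG 1 was added after the data were seen. The plain edgeR, DESeq2 and voom tests were also run on simulated data, while the fits with a block or offset and the permutation test were not.

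The 10 genes and the other lists were chosen with earlier results of these data known. Genes named were all 10, Hint2, from each partner list the 3 with the lowest unadjusted p, 8 partners whatever their p (Twnk, Mgme1, Top1mt, Mterf4, Mrpl12, Ppargc1a, Nrf1 and Gabpa, of which Mrpl12 and Ppargc1a came in by both rules), and the highest and lowest gene of the mitochondrial genome. Its other genes and Ppargc1b were named after their values were seen. Cell type markers were named by whole lists, and genes that share exon bases with one of the 10 for that overlap.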

Additional observations from a re-analysis of the deposited data

How the results depend on the processing

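Called genes of the group stayed at 0 in each of 17 alternatives. Of these, DESeq2 with all libraries called 3.95% of all genes tested. Called genes of the group became 2 in DESeq2 without NTG 1 (Ssbp1 and Lrpprc), where 11.7% of all genes tested were called. Of the 9 tested genes, 7 kept the direction of their fold change under all 18 alternatives. Polrmt turned to -0.015 with library size alone and to -0.0040 without NTG 2, and Tefm to -0.032 without TG 1 (ranges with a library left out -0.0040 to 0.10 and -0.032 to 0.23). The number of the genes with an unadjusted p under 0.05 was 2 as reported, 1 in DESeq2 and with library size alone, 4 in DESeq2 without NTG 1, and 0 to 5 with a library left out. Of all genes tested, 18.3% had such a p in DESeq2, 18.7% with library size alone and 25.3% in DESeq2 without NTG 1. With a library left out, 10.4% to 27.0% of all genes tested had one. The number with no overlap between the groups was 2 as reported, 3 with library size alone and 2 to 5 with a library left out, where 23.5%, 23.3% and 28.5% to 47.0% of all genes tested had none. The difference of the log2 ratio of Polg2 to Polg was -0.42 without TG 2, and -0.85 to -0.42 with any library left out. Scaling by library size alone moved the median of all genes to -0.093 and that of the 9 genes to 0.099. Deviations from the group mean had correlations of 0.081, 0.17 and -0.25 between libraries with the same replicate number. With 3 libraries per group, these cannot decide whether the numbers pair them. With the replicate block, 0 of the genes were called and 4 had an unadjusted p under 0.05, also with the length offset added, where 21.9% and 21.6% of all genes tested had one (18.6% as reported). All genes called by edgeR numbered 0 as reported, 232 with no filter, 231 with the replicate block, 270 with block and length offset and 836 without NTG 1. Counts were lowest in Slirp, at 1 to 8, where the part of the overlapping genes was not tested, and in Polg2, at 27 to 55, whose counting error depth sets.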
